A study of Mus musculus with 8 samples.

Results

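The cytosolic ribosomal protein genes, which encode the proteins of the large and small subunits of the ribosome that translates nuclear messages, were followed in cultured mouse neurospheres with and without FoxO3. Members were genes whose probe sets carry a single symbol of the form Rpl or Rps and a number, with an optional a, x or y, together with Rplp0, Rplp1, Rplp2 and Rpsa. Of 18193 genes measured, 42 were members, 22 of the large and 20 of the small subunit, spread over 15 chromosomes. A table of RefSeq genes holds 76 genes with such symbols, and the other 34 were not analysed here, 27 because their probe sets carry several symbols and 7 because no listed probe set carries them. Each gene was read from whichever of its probe sets had the highest mean over all 8 arrays.

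RNA came from secondary neurospheres, which are floating clusters of neural stem cells and their progeny regrown from dissociated first spheres, cultured from forebrains of FVB/N mice. The groups were FoxO3+/+ (wild type) and FoxO3-/- (null mutant), each with 4 Affymetrix Mouse430_2 arrays. Both genotypes were seeded at 50000 cells/ml, grown with bFGF and EGF at 20 ng/ml each, and collected on day 6. The titles divide the arrays into 2 sets, each with 2 arrays per genotype. Neither the age nor the sex of the mice is labelled, nor what a set is, nor whether its like-genotype arrays are separate cultures, so the p-values rest on a spread between arrays that may be only technical. The targeted gene Foxo3 read 10.00 to 10.32 on the wild type arrays and 8.86 to 9.14 on the null arrays, and the deleted part of the gene is not labelled. Values are log2 intensities normalized by the authors toward a like distribution on every array. Each difference is therefore relative to the rest of the array. The distributions still differed between sets. The 75th percentile was 8.47 to 8.53 on set 1 arrays and 8.56 to 8.61 on set 2 arrays, while the array medians were 6.27 to 6.31. Results after a further quantile normalization are given beside the main ones below.

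Ribosomal protein genes are among the most strongly transcribed genes of dividing cells, and their products are built into the subunits in near-equal amounts. Their messages begin with a short run of pyrimidines, the terminal oligopyrimidine or TOP motif, through which mTORC1 and the RNA-binding protein Larp1 set how much of the message is translated. FoxO3 is a forkhead transcription factor that Akt, a kinase upstream of mTORC1, keeps out of the nucleus when growth factors are present. An array measures the amount of message and not its translation.

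The starts of these genes are shown because the TOP run is the feature by which their messages are known. RefSeq promoter windows of GRCm38.p6 were found for 37 of the 42 members, 43 windows in all. In 8 members, 21.6% of the 37, the annotated first base was a C followed by at least 4 pyrimidines, against 2.67% of 17492 coding genes. Each line below gives 10 bases before the annotated start and the first 20 bases of the transcript, 5′ to 3′, with the pyrimidine run in capitals.
Rpl35: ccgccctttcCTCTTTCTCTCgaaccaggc
Rps10: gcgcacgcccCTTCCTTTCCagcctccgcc
Rps6: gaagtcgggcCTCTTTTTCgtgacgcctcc
Rps18: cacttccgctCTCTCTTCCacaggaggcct
Rpl38: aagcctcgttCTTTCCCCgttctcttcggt
Rps27: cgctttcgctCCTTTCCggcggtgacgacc
Rpl14: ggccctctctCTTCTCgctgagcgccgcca
Rplp2: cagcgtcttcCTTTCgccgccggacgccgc
Rps25: ccgacatcttagcgaggctgctgtggtcta
Rpl37: cctgggcggaagcttatccacaggaagtgg
The Rpl35 window lies at chr2:39005112-39005141 on the minus strand and has the longest run, 11 bases. The Rps25 window, at chr9:44407704-44407733 on the plus strand, and the Rpl37 window, at chr15:5116603-5116632 on the plus strand, have no run at the annotated base and are shown because these members had the largest differences between sets. An annotated start can lie some bases from the one that cells use. With the run allowed to begin within 5 bases of the annotated start, 18 members (48.6%) and 21.5% of coding genes had one.

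Other motifs were searched on both strands of the 300 bases from 250 before to 50 after each annotated start. The ETS motif CCGGAAG was in 18 of 37 members (48.6%) and in 12.9% of coding genes, and the YY1 motif AAGATGG, which can overlap the start codon, was in 7 members (18.9%) and 7.18% of coding genes. The FoxO core GTAAACA was in 1 member, Rpl41 (2.70%), and in 3.45% of coding genes. The Sp1 box GGGCGG was in 56.8% of members and 49.2% of coding genes, TATAAA in 13.5% and 14.8%, the E-box CACGTG in 10.8% and 8.91%, and the cyclic AMP element TGACGTCA in 5.41% and 2.54%. A match is a run of letters, not a binding site.

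In wild type spheres most members sat at the top of the arrays, with a small spread between arrays. For 33 members the mean over all 8 arrays of both genotypes was between 13.29 and 14.53. The 99th percentile of the arrays was 12.93 to 12.97 and the highest value of any array 14.71. They made up 17.5% of the 189 genes with a mean of at least 13. Whether signals so near the top of the scale are saturated was not tested, so a small spread or difference there is one of the array signal. The SD over 4 wild type arrays was under 0.05 for 23 members, and under that limit for 9.89% of all genes. Its median was 0.046 for members and 0.127 for all genes. Within sets, pooled over both, the median SD was 0.029 for members and 0.077 for all genes; among genes with a mean of at least 13 it was 0.025 for members and 0.037 for the other 156.

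Rpl10a, a protein of the L1 stalk, varied least within sets. Its wild type values were 13.98 and 13.97 in set 1 and 13.96 and 13.97 in set 2, an SD within sets of 0.0066. The widest was Rpl27a, a large-subunit protein, with 8.28 and 8.22 in set 1 and 8.55 and 8.10 in set 2, an SD within sets of 0.23. Rpl27a is also 1 of 9 members whose best single-symbol probe set was dim, with means over all 8 arrays of 4.55 to 10.68. The others were Rps16, Rps27, Rpl39, Rpl14, Rpl12, Rps25, Rps6 and Rpl37. Of these, Rps16 had a mean below the array medians of 6.27 to 6.31. Another 110 probe sets carry a ribosomal protein symbol beside others and were left out, and 75 of them had a mean of at least 13. Whether any of those reads a dim member was not examined, so a dim value may not stand for the whole message of its gene.

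No ribosomal protein gene was called higher or lower in FoxO3 null spheres. None of the 42 members passed between genotypes (limma with set as a term, Benjamini-Hochberg adjustment over all genes, adjusted p under 0.05), where 1.6% of all genes passed. At an unadjusted p under 0.05 there were 3 members (7.14%) and 15.5% of all genes. The median difference, FoxO3 null minus wild type, was -0.0076 for members and 0.0091 for all genes, with 15 members above 0 and 27 below. After a further quantile normalization the median was 0.0010 with 21 on each side, so no direction can be given to the group. The differences were small in size: 38 of 42 (90.5%) lay within 0.1 of 0, as did 70.5% of all genes, and 38 had a 95% interval wholly within 0.2 of 0, as did 45.4% of all genes.

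**Figure D1:**
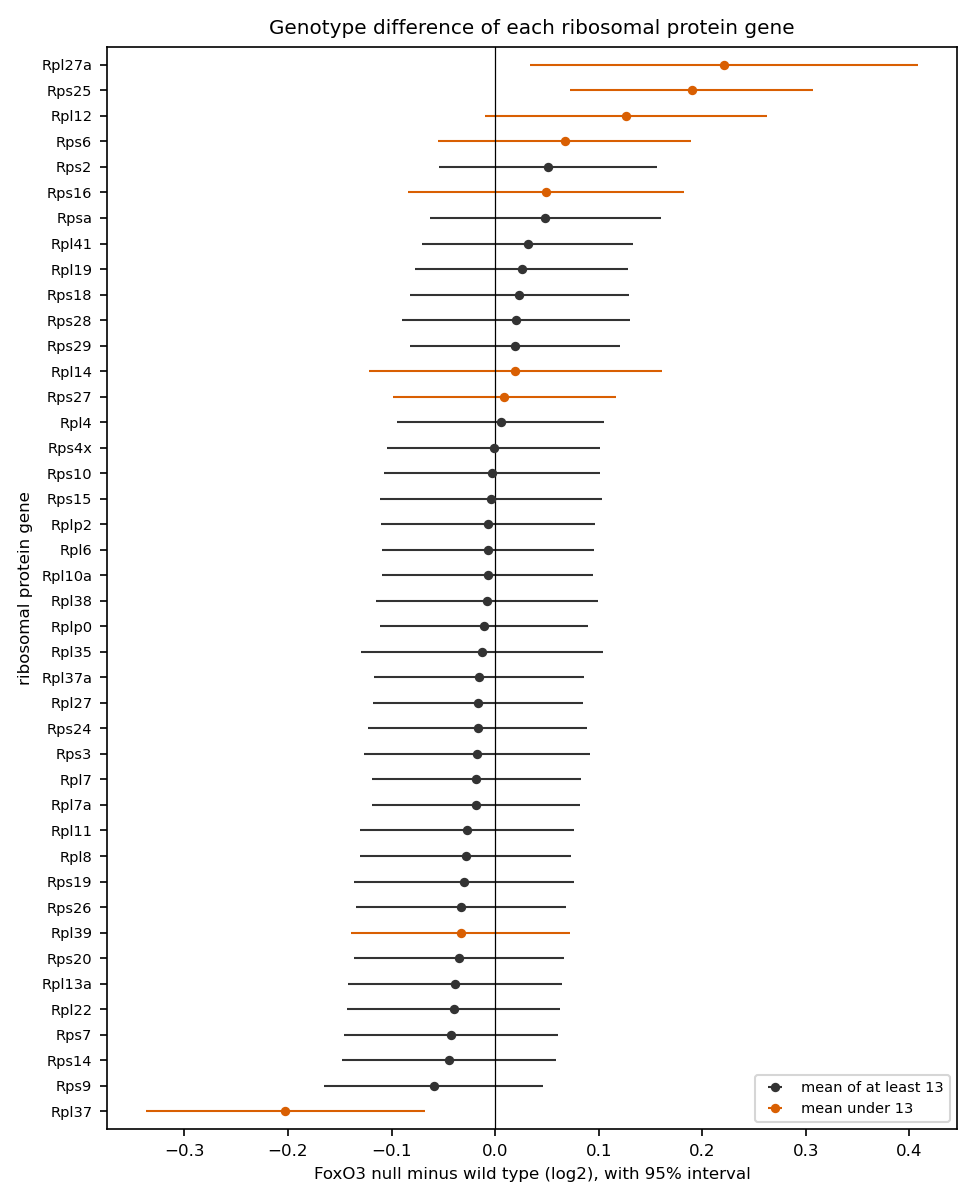
FoxO3 null minus wild type for each of the 42 members on the log2 scale (points) with 95% intervals from limma (lines), black for members with a mean of at least 13 and orange for the 9 dimmer ones. The 33 black points lie between -0.06 and 0.05, and the differences farthest from 0 are those of the dim members Rpl27a, Rps25, Rpl37 and Rpl12.

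Among the 33 bright members the difference ran from -0.06 to 0.05 and the widest limits of the 95% intervals were -0.17 and 0.16. Their median size was 0.019, where it was 0.032 for the 156 other genes with a mean of at least 13, of which 0.641% passed. The 9 dim members had a median size of 0.067. These values are of the brightest probe set of each gene. Over all 56 probe sets of members with a mean of at least 13, the difference ran from -0.15 to 0.05. The lowest was a further probe set of Rps24, 1456628_x_at (mean 13.22), where the brightest probe set of Rps24 differed by -0.02.

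The largest differences between genotypes were in dim probe sets. Rps25, a small-subunit protein used in ribosome entry at internal sites of some messages, measured 9.70, 9.79, 9.39 and 9.46 on the wild type arrays (1_1, 1_2, 2_1 and 2_2, here and below) and 9.89, 9.90, 9.71 and 9.60 on the FoxO3 null arrays. Within each set both FoxO3 null arrays were above both wild type arrays, while over the sets the genotypes overlapped. The difference was 0.19 ± 0.053 (SE, n = 4 per genotype, 95% interval 0.07 to 0.31), with a limma adjusted p of 0.122. It passed with each pair of like arrays in a set as a random block (limma adjusted p = 0.0435), where 4.38% of all genes passed. On the mean of each such pair it did not (limma adjusted p = 0.443, where 0 of all genes passed). The difference was 0.07 with mean Y-linked expression as a covariate (Eif2s3y, Kdm5d and Uty). These genes read lower in set 2 and in FoxO3 null arrays, so the covariate overlaps both terms of the fit. Here and below, a shift or a lost call under it cannot be told apart from that overlap.

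Rpl37, a zinc-binding large-subunit protein, went the other way, with 10.99, 10.82, 10.73 and 10.59 on the wild type arrays and 10.69, 10.76, 10.37 and 10.50 on the null arrays. Within each set both null arrays were below both wild type arrays, and over the sets the genotypes overlapped. The difference was -0.20 ± 0.061 (SE, limma adjusted p = 0.149). It passed when the prior variance was allowed to follow the mean level (limma adjusted p = 0.0471), and was -0.04 with the Y-linked covariate.

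Rpl27a measured 8.28, 8.22, 8.55 and 8.10 on the wild type arrays and 8.46, 8.47, 8.58 and 8.54 on the null arrays. Wild type array 2_1 lay among the null arrays and the other 3 lay below them. The difference of 0.22 ± 0.084 (SE, limma adjusted p = 0.242) was 0.13 without wild type array 2_2, and 0.12 as the mean of all probe sets of the gene.

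The other members named by smallest p moved less. Rpl12, at the base of the stalk that recruits elongation factors, differed by 0.13 ± 0.061 (SE, limma adjusted p = 0.363). Rps9, which bears on decoding accuracy, differed by -0.06, and by 0.07 when read from another of its probe sets. Rps6, the classic substrate of the S6 kinases, differed by 0.07, Rps2 of the mRNA entry tunnel by 0.05 and Rpsa of the mRNA exit side by 0.05, all with limma adjusted p between 0.617 and 0.72. Single arrays weighed on these: without wild type array 2_2 Rpl12 differed by 0.08, without wild type array 2_1 Rps6 differed by 0.03, and Rpsa differed by 0.02 without null array 2_1 and by 0.03 without wild type array 1_1.

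Rps14, on the platform of the small subunit, was the only member whose 4 values in one genotype all lay apart from those in the other (3.72% of all genes did). Its wild type arrays read 14.00 to 14.02 and its null arrays 13.92 to 14.00, a difference of -0.04 (limma adjusted p = 0.72).

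By role, no group of members held a passing gene. The 3 stalk members Rplp0, Rplp2 and Rpl12 ran from -0.01 to 0.13, the 5 of the peptide exit tunnel and its rim (Rpl4, Rpl39, Rpl19, Rpl22 and Rpl35) from -0.04 to 0.03, and the 4 at the mRNA exit (Rpsa, Rps26, Rps28 and Rps14) from -0.04 to 0.05. Rpl11, which with Rpl5 and the 5S ribosomal RNA can bind Mdm2, differed by -0.03. The 7 measured members among 12 genes mutated in Diamond-Blackfan anaemia ran from -0.04 to 0.02. The X-linked members Rps4x and Rpl39 differed by -0.0014 and -0.03.

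The genotype difference was next compared between sets. No member passed for the interaction of genotype and set (0.187% of all genes passed), the smallest limma adjusted p was 0.852, and 0 of 42 had an unadjusted p under 0.05. The sign was the same in both sets for 26 members (61.9%), and for 57.3% of all genes.

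**Figure D2:**
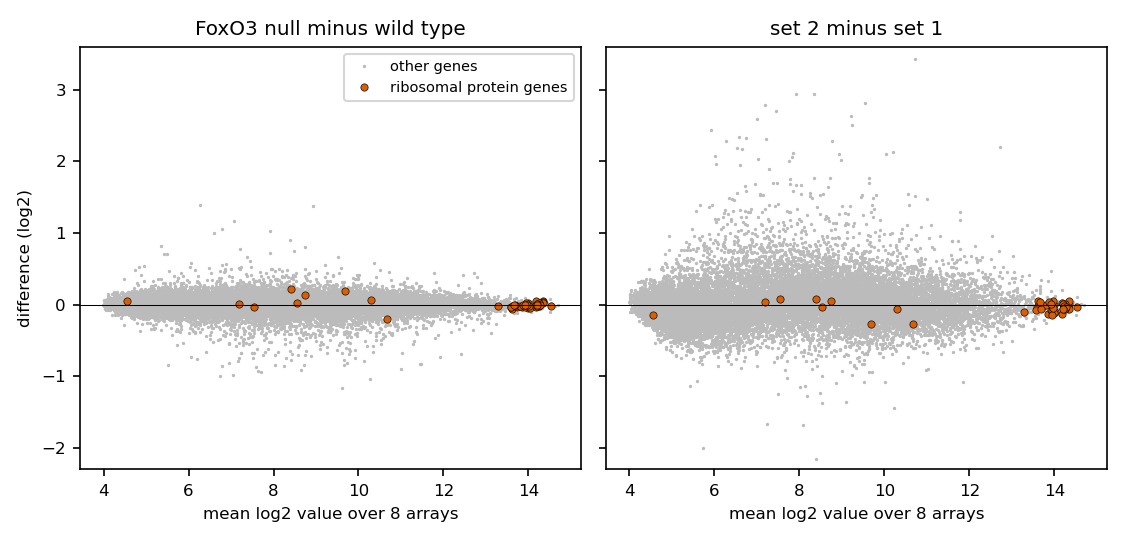
Mean log2 value over 8 arrays (horizontal) against the log2 difference between genotypes (left) and between sets (right) for every gene, members in orange. The members crowd at the right end of both panels near 0, inside a cloud that is wider between sets than between genotypes.

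Between sets many genes differed, and 4 ribosomal protein genes were among them. Of all genes 43.8% passed between sets, 21.6% lower and 22.2% higher in set 2. Of the members 4 of 42 (9.52%) passed, all lower in set 2, namely Rps25, Rpl37, Rpl35 and Rps20. The other genes with a mean of at least 13 passed in 30.8% of cases. The median size of the difference was 0.050 for members and 0.150 for all genes. The median difference, set 2 minus set 1, was -0.03 for members and -0.01 for all genes, with 28 members (66.7%) and 52.2% of all genes below 0, and the members' median was -0.03 after both other scalings. After a further quantile normalization the medians were -0.0264 for members and -0.0227 for all genes.

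How many members passed turned on the variance model. The residual SD had a median of 0.029 over members, while the spread that limma borrowed from all genes was 0.088, and 40 of the 42 members lay under it. With a prior that follows the mean level, 13 members passed (31.0%), all lower in set 2, beside 45.3% of all genes and 52.6% of the other bright genes. The 9 added were Rpl4, Rpl7, Rpl27, Rpl41, Rps4x, Rps7, Rps18, Rps26 and Rpsa. With mean Y-linked expression as a covariate none passed, and 8.22% of all genes did. That mean was itself 7.90 to 8.35 in set 1 and 6.88 to 7.80 in set 2. The lost calls therefore cannot be told apart from the overlap of the covariate with set.

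**Figure D3:**
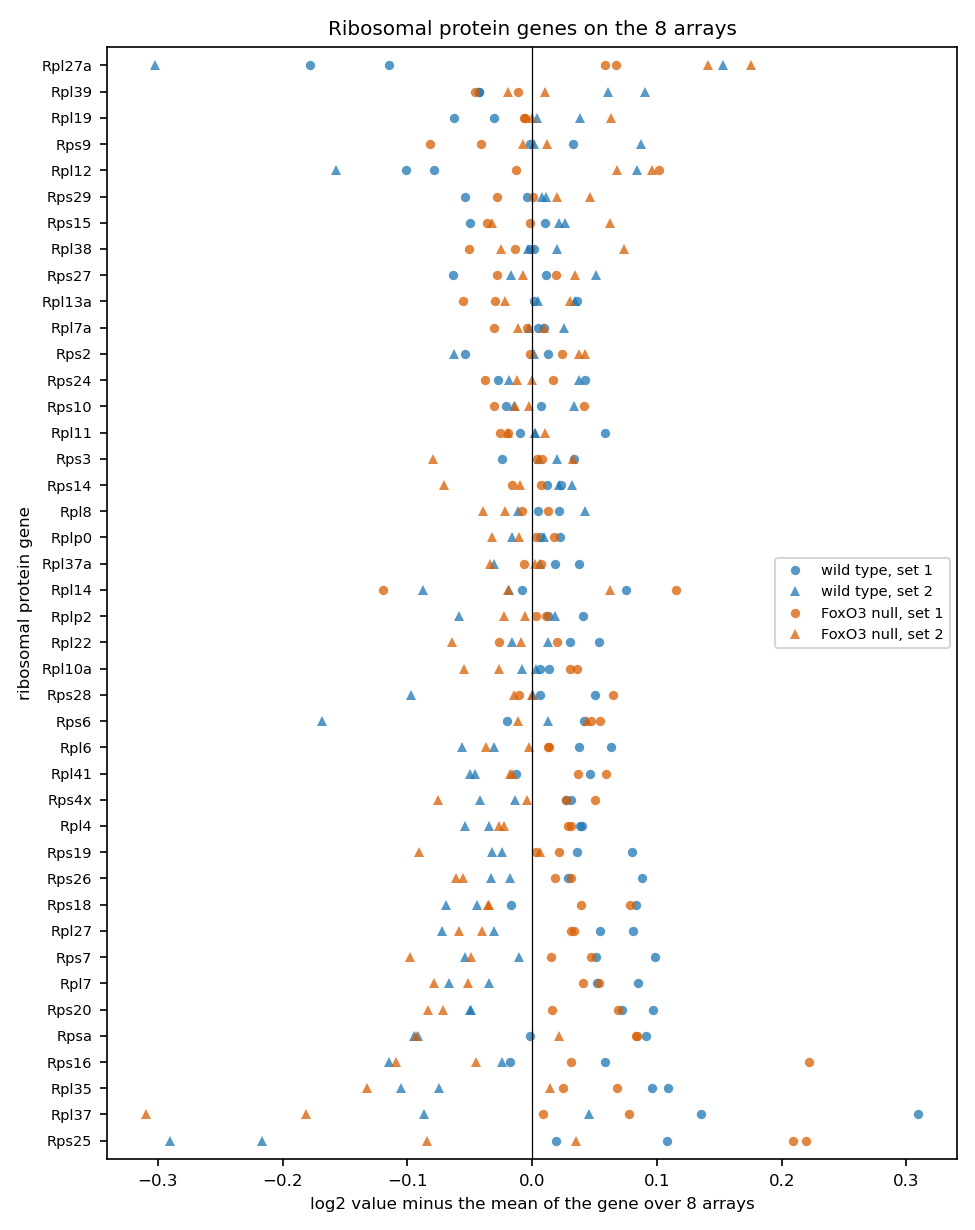
Log2 value of each member on each of 8 arrays minus its own mean over the arrays, blue for wild type, orange for FoxO3 null, circles for set 1 and triangles for set 2, ordered from higher in set 2 (top) to lower in set 2 (bottom). Colours mix in most rows, while circles and triangles separate in the lower rows; 13 members have every set 2 array below every set 1 array.

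Rps25 was lowest in set 2 relative to set 1. From the values above, set 1 averaged 9.82 ± 0.094 and set 2 averaged 9.54 ± 0.14 (SD, n = 4 each), and the sets overlapped between wild type 1_1 and null 2_1. It fell by 0.28 (SE 0.053, limma adjusted p = 0.00205), to 82.5% of the set 1 signal. It fell by 0.32 among wild type arrays and fell by 0.24 among null arrays. It was called without each array in turn, but not with the Y-linked covariate (difference -0.47, limma adjusted p = 0.0698).

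Rpl37 averaged 10.81 ± 0.13 in set 1 and 10.55 ± 0.15 in set 2. It fell by 0.27 (SE 0.061, limma adjusted p = 0.00555), to 83.2%. Null array 1_1, at 10.69, lay below wild type array 2_1, at 10.73, so the sets overlapped. It too was called without each array in turn, and with the Y-linked covariate the difference was -0.02 (limma adjusted p = 0.954).

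Rpl35, at the rim of the exit tunnel, read 14.06, 14.05, 13.97 and 14.02 in set 1 (wild type first) and 13.84, 13.88, 13.96 and 13.82 in set 2. Every set 2 array was below every set 1 array. It fell by 0.15 (SE 0.053, limma adjusted p = 0.0414). The call was lost when any one array other than FoxO3null 1_1 or FoxO3null 2_1 was left out (limma adjusted p 0.0173 to 0.117 over all 8 omissions). In the test over all probe sets this probe set did not pass (limma adjusted p = 0.0536). The bright 1455950_x_at, 1454856_x_at and 1436840_x_at of Rpl35 did, at -0.18, -0.15 and -0.22 (limma adjusted p = 0.0211, 0.039 and 0.0117). The bright 1416243_a_at (-0.11) and the dim 1454833_at (0.06) did not.

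Rps20, a head protein of the small subunit, read 13.95, 13.93, 13.87 and 13.93 in set 1 and 13.81, 13.81, 13.77 and 13.78 in set 2, again without overlap. It fell by 0.13 (SE 0.046, limma adjusted p = 0.0441), and the call was lost whichever single array was left out (limma adjusted p 0.0572 to 0.107).

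The members without overlap between sets numbered 15 (35.7%, beside 38.1% of all genes), 13 lower and 2 higher in set 2. Those lower were Rpl4, Rpl6, Rpl7, Rpl10a, Rpl27, Rpl35, Rpl41, Rps4x, Rps7, Rps16, Rps18, Rps20 and Rps26, and those higher were Rpl19 and Rps29. Rpl4, whose loop lines the exit tunnel, shows how small these shifts were, with 14.24 ± 0.0053 in set 1 and 14.17 ± 0.014 in set 2 (SD, n = 4). Array by array, the median deviation of the members from their own means was 0.011 to 0.027 in set 1 and -0.026 to -0.0027 in set 2.

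Other values moved with the sets. All 7 measured markers of dividing cells passed as lower in set 2, with differences of -0.61 to -0.19, and their mean was 11.96 to 12.08 in set 1 and 11.50 to 11.80 in set 2. Of 5 oligodendrocyte markers 4 passed as higher, among them Mbp and Mog, and the mean of the list was 9.26 to 9.36 in set 1 and 10.60 to 10.79 in set 2. Of 6 astrocyte markers 3 passed as higher, with list means of 9.85 to 10.03 and 10.18 to 10.62. The spheres carried the stem and progenitor markers Nes, Sox2 and Fabp7 at wild type means of 10.82, 13.01 and 14.55, and this list was split between sets, 2 higher and 3 lower of 6, with means of 10.15 to 10.29 and 10.14 to 10.25. Neuron markers were split, 2 higher and 2 lower of 8. Of 6 microglia markers 3 passed as lower, of 4 endothelial markers 1, and of 3 ependymal markers 1 was higher and 1 lower, with list means of 5.10 to 5.42, 5.59 to 5.91 and 6.24 to 6.40. The 3 Y-linked genes passed as lower in set 2, and 2 of them as lower in FoxO3 null arrays. The actin control, read as its 3′ less its 5′ probe set, was 0.47 to 0.54 in set 1 and 0.33 to 0.39 in set 2. The part of these in the members' differences was not tested, and in RNA of whole spheres fewer cells of a type and less RNA per cell cannot be told apart.

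The remaining probe sets of the same genes were less uniform than the brightest. The 42 members have 94 single-symbol probe sets, 20 members having 1 and none more than 6. Between genotypes none of the 94 passed (smallest limma adjusted p = 0.176), beside 0.802% of all 45037 probe sets. Between sets 19 of 94 (20.2%) passed, 3 higher and 16 lower in set 2, beside 38.4% of all probe sets. Of the 56 with a mean of at least 13, 6 passed, and of the 38 dimmer ones 13.

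**Figure D4:**
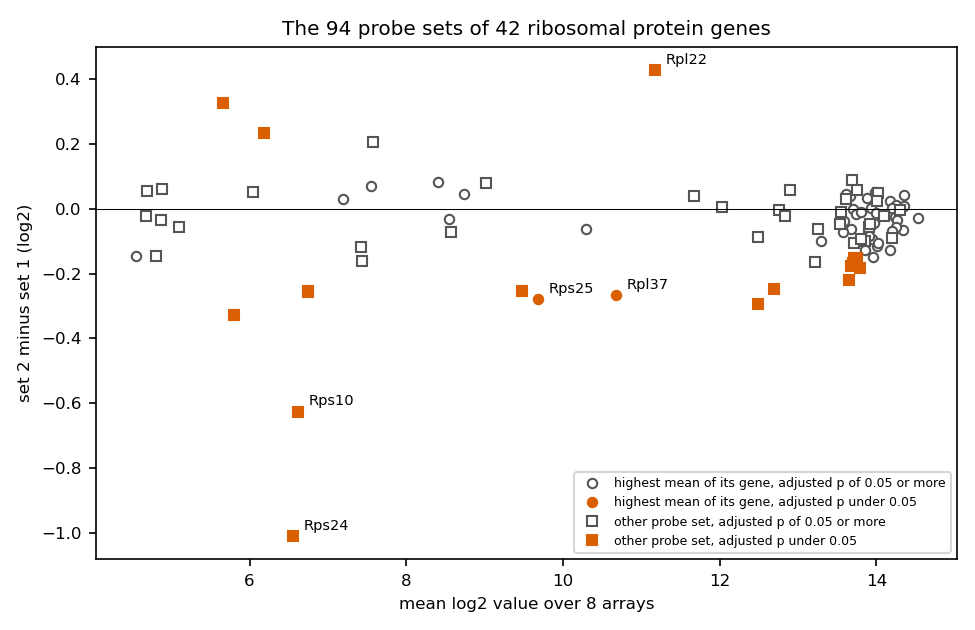
Mean log2 value over 8 arrays against set 2 minus set 1 (log2) for the 94 probe sets of the 42 members, circles for the probe set with the highest mean of its gene and squares for the others, filled orange where the adjusted p over all probe sets was under 0.05. Bright probe sets lie close to 0, and the large differences are in dimmer probe sets of Rps24 (-1.01), Rps10 (-0.63) and Rpl22 (0.43).

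In Rps24, Rps10 and Rpl22, chosen after their values were seen, a single dimmer probe set gave a different answer from the brightest. The remaining probe sets of these genes did not pass between sets. The brightest probe set of Rps24 differed by 0.0031 between sets. Its dim probe set 1436500_at read 6.88, 7.14, 7.04 and 7.18 in set 1 (wild type first) and 6.28, 6.06, 5.85 and 6.02 in set 2, with no overlap, and fell by 1.01 (SE 0.093, limma adjusted p = 3.06e-05). Rps10 was alike, with 0.0015 in its brightest probe set and a fall of 0.63 in the dim 1436384_at (limma adjusted p = 2.41e-05). Rpl22, whose product lies near the tunnel exit, differed by -0.04 in its brightest probe set and by 0.43 in 1448398_s_at (limma adjusted p = 0.000202). In Rpl27, Rpl35, Rpl41, Rps3, Rps7 and Rps18 the brightest probe set did not pass in this test, while another passed as lower. Rpl27 differed by -0.10 in its brightest (limma adjusted p = 0.126) and by -0.25 and -0.29 in its others (limma adjusted p = 0.00596 and 0.00411). The passing 1435593_x_at of Rps7 (-0.17) and 1455572_x_at of Rps18 (-0.15) were bright.

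Rps20 was the only member whose probe sets passed in both directions. Its bright 1456373_x_at was lower in set 2 (-0.18, limma adjusted p = 0.017), while the dim 1421935_at (0.23, limma adjusted p = 0.0133) and 1450417_a_at (0.33, limma adjusted p = 0.00793) were higher. The means of the dim probe sets, 6.19 and 5.66, lie below the array medians, so their differences are of low signal. The 110 probe sets that carry a ribosomal protein symbol beside others gave 0 calls between genotypes, 3 of them at an unadjusted p under 0.05, and 28 (25.5%) between sets, 6 higher and 22 lower.

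Genes that act with ribosomal proteins were read from lists chosen with earlier results of these data known. Of 191 such genes 1 passed between genotypes, beside 1.6% of all genes, and 67 between sets, beside 43.8%. The factors that assemble ribosomes in the nucleolus stood above 0 in FoxO3 null arrays in 39 of 40 cases, with a median of 0.12, beside 54.2% of all genes and 35.7% of the ribosomal proteins. Only 1 of them passed, Utp20, a scaffold of early small-subunit assembly. It read 9.42, 9.49, 9.03 and 9.07 in wild type and 9.72, 9.64, 9.36 and 9.28 in null arrays, so that within each set the null arrays were higher, a difference of 0.25 ± 0.050 (SE, limma adjusted p = 0.0397). The Utp20 call was lost after a further quantile normalization, where 0 assembly factors passed (smallest limma adjusted p = 0.0557), and whichever single array was left out. Without wild type array 1_1 Dkc1 passed in its place (limma adjusted p = 0.0409). Over these omissions the median ran from 0.08 to 0.13 and 33 to 39 of 40 stood above 0.

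Next by p was Rrs1, of 5S particle assembly, at 0.19 ± 0.049 (SE, limma adjusted p = 0.103), and the 1 factor below 0 was Efl1, which releases Eif6 (-0.17, limma adjusted p = 0.336). The median was 0.06 in set 1, with 30 of 40 above 0, and 0.14 in set 2, with 37 of 40. It was 0.12 after a further quantile normalization and 0.11 after median centring. With the Y-linked covariate it was 0.04, with 23 of 40 above 0. The markers of dividing cells moved alongside, 7 of 7 above 0 in FoxO3 null arrays with a median of 0.13 and none passing. Of the other marker lists, 2 of 5 oligodendrocyte markers passed as lower in FoxO3 null arrays (Pdgfra, -0.67, and Sox10, -0.27), as did 1 of 6 astrocyte markers (Slc1a2, -0.84) and 1 of 8 neuron markers (Gad1, -0.91), while 1 of 6 stem and progenitor markers passed as higher (Nes, 0.29). These lists were mixed in sign: 3 of 5 oligodendrocyte, 2 of 6 astrocyte, 4 of 8 neuron and 3 of 6 stem and progenitor markers were above 0. For the interaction of genotype and set 1 oligodendrocyte marker passed (limma adjusted p = 0.0366). No microglia, endothelial or ependymal marker passed between genotypes. The part of these markers in the values of the assembly factors and of the ribosomal proteins was not tested.

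**Figure D5:**
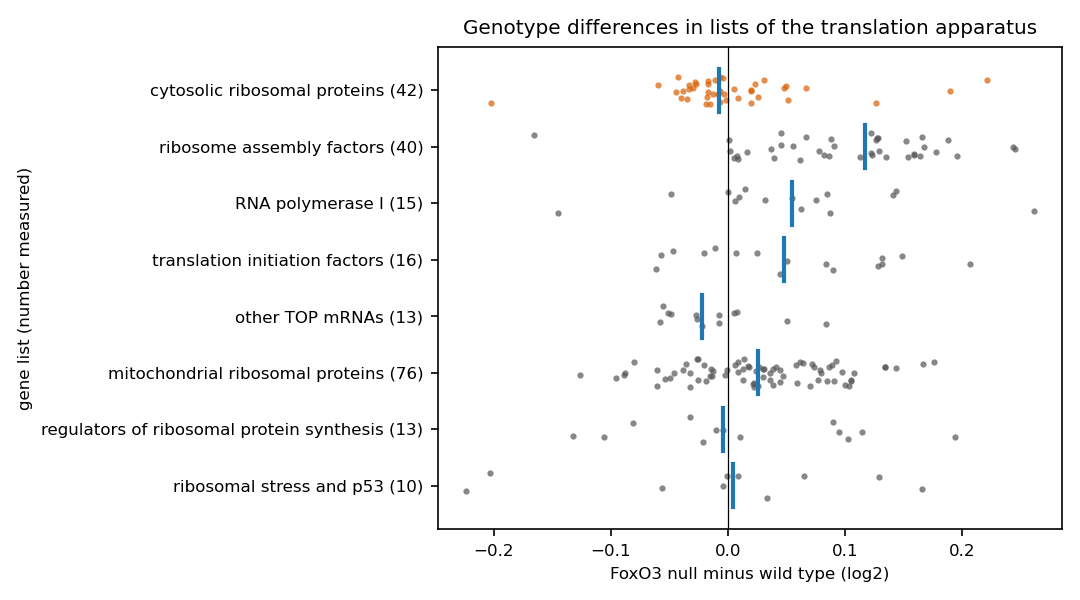
FoxO3 null minus wild type (log2) for each gene of the cytosolic ribosomal proteins (orange) and of 7 lists of the translation apparatus (grey), with the median of each list as a blue bar. The ribosomal proteins gather around -0.0076, or 0.0010 after a further quantile normalization, and the 40 assembly factors around 0.12.

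RNA polymerase I and its factors were above 0 in 13 of 15 cases, with a median of 0.06 and no call. In set 1 alone 11 of 15 were above 0 (55.6% of all genes), and in set 2 alone 9 of 15 (50.8% of all genes). The smallest p was that of Ubtf, which opens ribosomal DNA for transcription (0.26 ± 0.059, SE, limma adjusted p = 0.0633). After a further quantile normalization Ubtf passed (limma adjusted p = 0.0461). Other genes with TOP messages had 4 of 13 above 0, a median of -0.02 and no call. The mitochondrial ribosomal proteins, of a separate ribosome, had 51 of 76 above 0, a median of 0.03 and no call. Of these 76, 44 were above 0 in set 1 alone, 52 in set 2 alone and 37 with the Y-linked covariate.

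The translation initiation factors had 11 of 16 above 0 and no call, Eif2s3x having the smallest p (0.21 ± 0.052, SE, limma adjusted p = 0.0909). In set 1 alone 8 of 16 were above 0 (median 0.007), and in set 2 alone 12 of 16 (median 0.06). Among 13 regulators, which include the mTORC1 pathway and Myc, 6 were above 0 and none passed, Tsc2 having the smallest p (0.19, limma adjusted p = 0.177). Of 10 genes of the p53 response to ribosomal stress 5 were above 0 and none passed, with Cdkn1a at -0.20 (limma adjusted p = 0.254). By set, 9 of the 10 were above 0 in set 1 (median 0.10) and 2 of 10 in set 2 (median -0.09), and none passed for the interaction (smallest limma adjusted p = 0.17). Among 6 paralogs of ribosomal proteins none passed, Rps4l being at 0.27 (limma adjusted p = 0.113). The ribosomal proteins outside the symbol rule, Rps3a1 and Fau, differed by -0.05 and -0.03 without passing.

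Between sets these lists gave 67 calls among 191 genes, where the ribosomal proteins gave 4 among 42 and all genes 43.8%. The assembly factors gave 13 of 40, 5 higher and 8 lower in set 2, with Dkc1, the pseudouridine synthase of the nucleolus, at 0.81. The mitochondrial ribosomal proteins gave 24 of 76, 18 higher and 6 lower, the initiation factors 8 of 16, the regulators 6 of 13 (3 higher and 3 lower), the other TOP messages 5 of 13, RNA polymerase I 5 of 15, the p53 genes 4 of 10, the paralogs 2 of 6, and Rps3a1 and Fau 0. Among the regulators Akt1s1, an inhibitory partner of mTORC1, differed by 0.77 (limma adjusted p = 1.93e-05) and Myc, an activator of ribosome production, by 0.50 (limma adjusted p = 8.45e-05), both higher in set 2, and Eif4ebp2, a repressor of cap-dependent initiation, by -0.36 (limma adjusted p = 0.000528).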

How the data were processed

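The 8 arrays were deposited as 1 table of log2 expression values, made by the authors with RMA, per the submitters' processing notes (version not given in the sources used). RMA subtracts background, quantile-normalizes and summarises probe sets, which hides shifts shared by all genes and compresses dim values. Of 45101 probe sets 64 controls were left out; 34945 carry 1 symbol in the platform annotation, 932 several and 9160 none, and those with several stood for no gene. Groups and sets came from the titles.

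Genes (the probe set with the highest mean) were fitted with limma 3.58.1 in R 4.3.3 (lmFit, eBayes with a constant prior), genotype and set as additive terms, two-sided, Benjamini-Hochberg over all genes, adjusted p under 0.05. The fit was also run on simulated data with independent noise between arrays and planted shifts larger than any member's difference between genotypes. That run cannot show how the fit does where like arrays depend on each other or shifts are small. Arrays limit precision by their number, 4 per genotype. The members, gene lists, markers and alternatives were chosen with earlier results of these data known. Named are at least 8 members by smallest p between genotypes, up to 10 called in each direction between sets, the members of widest and narrowest wild type SD within sets, members called in both directions by different probe sets, and genes of the lists by smallest p. Promoter windows came from RefSeq tables of GRCm38.p6.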

Additional observations from a re-analysis of the deposited data

Results flagged for a closer look

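In 84 groups of 4 values (42 members in 2 genotypes), 3 single arrays stood far from the other 3 of their group by Dixon's criterion at the 95% level, which chance meets in about 1 of 20 groups. Rpl19 read 14.04 on FoxO3 null array 2_1 and 13.97 to 13.98 on the other null arrays. Rps19 read 13.49 on FoxO3 null array 2_2, where the others read 13.58 to 13.60. Rps6 read 10.29 on the same array and 10.34 to 10.35 on the others.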

How the results depend on the processing

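Members passing between genotypes numbered 0 in the settings run, apart from 1 with a variance trend (Rpl37) and 1 with like arrays of a set as a random block (Rps25). With the title numbers as a replicate block in place of the set term the count was 0 and the median -0.0076, and the block changed no call of a member. Deviations of same-numbered arrays correlated at 0.657 to 0.721, which includes the sets, and at 0.118 within set 1 and -0.11 within set 2. The labels do not say what the numbers are, so whether same-numbered arrays were paired is not known. Without each array in turn the genotype median ran from -0.0158 to -0.0028; with the Y-linked covariate it was -0.0196 and the median between sets -0.0461. Members passing between sets, 4 as reported, numbered 1 in WildType arrays alone and 1 in FoxO3null arrays alone, 2 after quantile normalization again, 2 after median centring, 2 at an adjusted p under 0.01, 2 in the test over all probe sets, 2 on means over each pair of like arrays, 0 with the Y-linked covariate, 9 with that random block, 9 from the mean of all probe sets, 12 from the probe set with the largest variance (2 higher, 10 lower), 13 with a variance trend, 14 with no moderation, and 2 to 4 without each array in turn (median -0.0387 to -0.0264). Interaction calls were 0 throughout. Directions reversed for Rps9 between genotypes (0.0653 from the largest-variance probe set and with no _s_at or _x_at probe sets), for Rps6 (-0.0358) and Rpsa (-0.0222) with the Y-linked covariate, and for Rps20 between sets (0.3274 from the largest-variance probe set, 0.0645 from the mean of all, 0.2347 with no _s_at or _x_at). Genes of the context lists passing between genotypes went from 1 to 0 at an adjusted p under 0.01 and to 0 with no set term, and between sets from 67 to 39 at 0.01. The share of starts with a pyrimidine run was 48.6% within 5 bases. Beyond the changes of probe set and threshold, the causes were not tested. All genes passing between genotypes numbered 291 as fitted, 3 with no set term, 63 and 171 in set 1 and set 2 alone, 620 with a variance trend, 796 with the random block, 0 with no moderation (2 members at an unadjusted p under 0.05) and 8 with the Y-linked covariate.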
